A study of Homo sapiens with 6 samples.

Results

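SETD7 was examined among 37 genes that encode SET-domain lysine methyltransferases or their close relatives, chosen by gene name from the 58735 genes of an RNA-seq table. The cells were HGC-27, an undifferentiated gastric carcinoma line derived from a lymph node metastasis, with wild-type genotype in the labels of both groups. In the shACAT2 group they carried pSIH-H1-Puro-shACAT2, a vector that drives a short hairpin RNA against ACAT2 from the H1 promoter. In the shNC group they carried pSIH-H1-Puro-shNC, the control vector. Each group held 3 libraries, all exposed to the vector for 24 h and then selected in puromycin for 7 days. ACAT2 is the cytosolic acetyl-CoA acetyltransferase. The labels name neither which ACAT2 hairpin was used nor whether the libraries of a group came from separate cultures, so the p-values measure the spread between libraries, which may be technical. The question was how the fall of SETD7 after ACAT2 knockdown compared with the behaviour of the rest of its enzyme family.

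The SET domain transfers methyl groups from S-adenosylmethionine to the side chain of lysine. Most of these enzymes act on histone tails, and the lysine they choose gives them their role: methylation of H3K4 and H3K36 accompanies active genes, methylation of H3K9, H3K27 and H4K20 accompanies silent or compacted chromatin. SETD7 adds a single methyl group to H3K4 and also methylates many proteins that are not histones, among them p53 and YAP1. It acts as a single protein, whereas the KMT2 and SETD1 enzymes work inside large complexes.

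SETD7 (ENSG00000145391) lies on the minus strand of chromosome 4, at chr4:139495941-139606699 in GRCh38, and its exons sum to 13916 bases. Because it is the member whose RNA fell, the 300 bases around its RefSeq start (GRCh38.p14, chr4:139556170-139556469, minus strand, 5′ to 3′) are shown, with each CpG in capitals.
SETD7 promoter: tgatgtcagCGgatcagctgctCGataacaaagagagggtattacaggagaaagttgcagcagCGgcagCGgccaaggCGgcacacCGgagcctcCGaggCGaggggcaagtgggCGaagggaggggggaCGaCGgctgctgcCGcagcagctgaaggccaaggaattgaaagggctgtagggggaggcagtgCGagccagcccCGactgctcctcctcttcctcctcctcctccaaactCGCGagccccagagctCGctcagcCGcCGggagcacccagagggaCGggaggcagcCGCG
The window holds 22 CpG and is 66% G or C, against medians of 14 and 58.3% over all promoters and of 33 and 69% over the 35 members with a window. SETD1B and NSD3 have no matched window. The GC box (GGGCGG, either strand) was found in 29 of the 35 member windows and in 44.6% of all 27305 windows, but these letters are not in the SETD7 window. CCAAT was found in 12 member windows (35.7% of all), the E-box CACGTG in 7 (7.4% of all) and the TEAD letters GGAATG in 3 (14.1% of all). TATAAA (12.0% of all) and the sterol regulatory letters TCACNCCAC (1.15% of all) were in 0 of the 35. None of these 6 letter patterns is in the SETD7 window on either strand. The annotation also starts SETD7-201 at 139556774, upstream of the window.

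The targeted gene was checked before the members. ACAT2 stood at 14.2, 11.7 and 12.7 FPKM (fragments scaled to the exon length of the gene and to a scaling value of the library) in the shNC libraries and at 6.19, 5.46 and 6.05 FPKM in the shACAT2 libraries. Its log2 fold change was −1.01 (SE 0.103, limma adjusted p = 0.00594), and the adjusted p was 0.0512 without shNC-3. Between 14086416 and 16067486 fragments lay on genes in each library. All log2 fold changes given here are shACAT2 minus shNC on the log2(FPKM + 1) scale, which understates the change of low genes. The adjusted p-values come from limma with Benjamini-Hochberg adjustment over the 13832 genes tested, whose group mean reached 1 FPKM in shNC or in shACAT2 cells, and an adjusted p below 0.05 was called a change. In all, 5.1% of genes tested were called, 1.81% lower and 3.3% higher. The defining markers of epithelium and stomach mucosa were nearly absent: 4 of 5 epithelial markers (KRT8, KRT18, KRT19 and EPCAM) and 7 of 7 mucosal markers stayed under 1 FPKM in every library. Of 3 mesenchymal markers, vimentin stood at 246 to 292 FPKM in shNC and 340 to 461 FPKM in shACAT2 libraries (0.62, adjusted p = 0.0634). Vimentin was called with the replicate number as a block in the fit (adjusted p = 0.0265) and by limma-voom on the recovered fragments (0.0314). ZEB1 stood at 3.66 to 6.51 FPKM over all libraries (0.11, adjusted p = 0.803), and CDH2 was at most 0.0808 FPKM.

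All 37 members passed the filter on low values, and SETD7 was the only member called changed. Its RNA stood at 7.77, 8.60 and 8.12 FPKM in the shNC libraries and at 2.54, 3.49 and 3.23 FPKM in the shACAT2 libraries. All 3 knockdown libraries lay far below all 3 controls, and the mean fell by 62.2%, from 8.17 ± 0.418 FPKM (SD, n = 3) to 3.09 ± 0.493 FPKM (SD, n = 3). This gave a log2 fold change of −1.17, with a 95% interval from −1.44 to −0.90 and an SE of 0.113 (limma adjusted p = 0.00516). The fragments behind these levels numbered 536 to 1949 in each library. Of the 13832 genes, 35 had a lower log2 fold change. A two-sided exact permutation test over the libraries gave p = 0.1, the smallest that 3 against 3 allows. SETD7 was singled out with its fall already known, so these tests describe it and are no independent evidence.

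The place of SETD7 in the family shifted with its level. It ranked the 17th of the 37 members by mean FPKM in shNC cells and the 32nd in shACAT2 cells. SETD7 made up 2.07, 2.23 and 2.14% of the members' summed FPKM in the control libraries and 0.758, 0.995 and 0.956% in the knockdown libraries. The sum itself was 375, 385 and 379 FPKM in shNC and 335, 351 and 338 FPKM in shACAT2 libraries. Within the H3K4 enzymes alone, its share went from 7.60, 8.53 and 8.01% to 3.77, 4.43 and 4.45%.

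**Figure D1:**
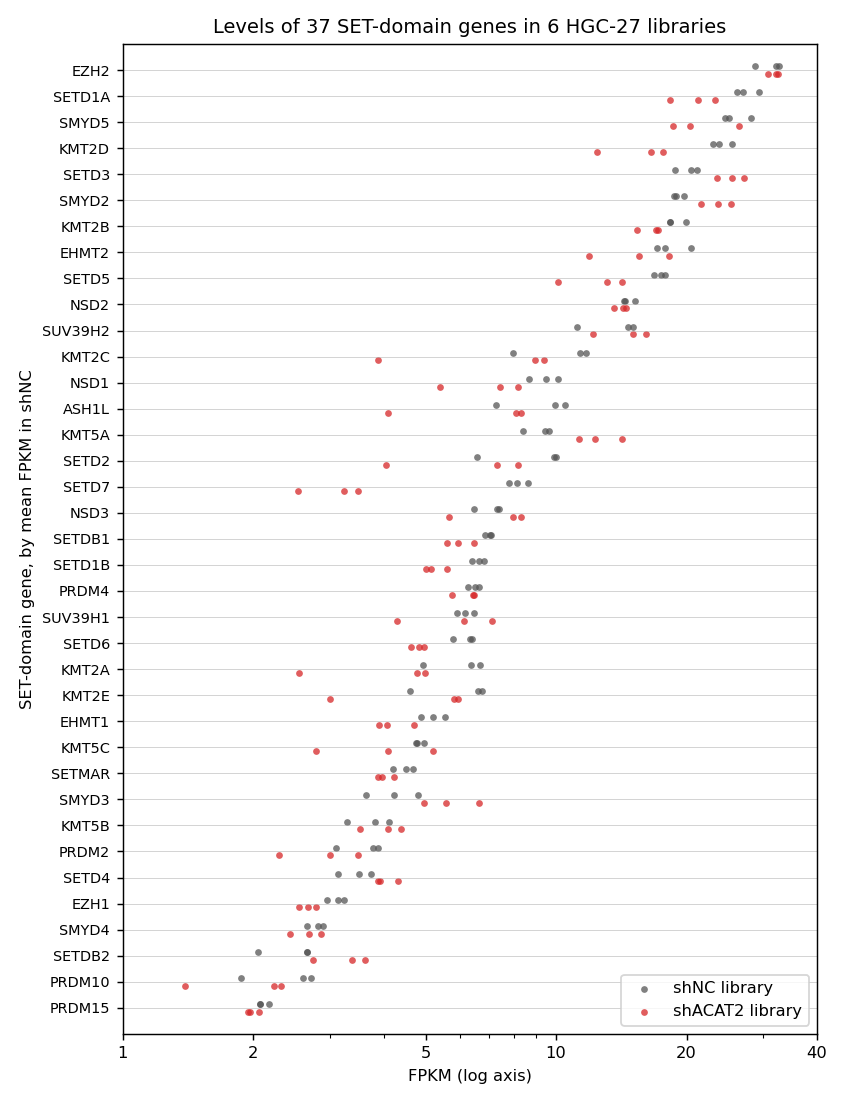
FPKM of the 37 SET-domain genes on a log axis, with 1 point for each of the 3 shNC (grey) and 3 shACAT2 (red) libraries, ordered by mean FPKM in shNC. The SETD7 points do not overlap, at 7.77 to 8.60 FPKM in shNC and 2.54 to 3.49 FPKM in shACAT2 libraries, while EZH2, the highest member, overlaps between the groups.

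The 1 member of 37 that passed compares with 5.1% of all genes, so the family as a whole held no larger share of changed genes than the background. The log2 fold change was below 0 for 27 of the 37 members and for 47.7% of all genes tested, and the median was −0.19 over the members and 0.016 over all genes. The groups did not overlap, with shACAT2 lower, in 12 members, against a background of 14.5% of genes. They did not overlap, with shACAT2 higher, in 6 members, against 16.2% of genes. An unadjusted p below 0.05 was reached by 13 members (8 lower and 5 higher) and by 23.5% of all genes. With the replicate number as a block, 6 members passed (4 lower and 2 higher), against 12.5% of genes. These were SETD7 (adjusted p = 0.0106), SETD6 (0.0448), SETD2 (0.0488) and SETD1A (0.0490) on the lower side, and KMT5A (0.0320) and SMYD3 (0.0346) on the higher side.

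**Figure D2:**
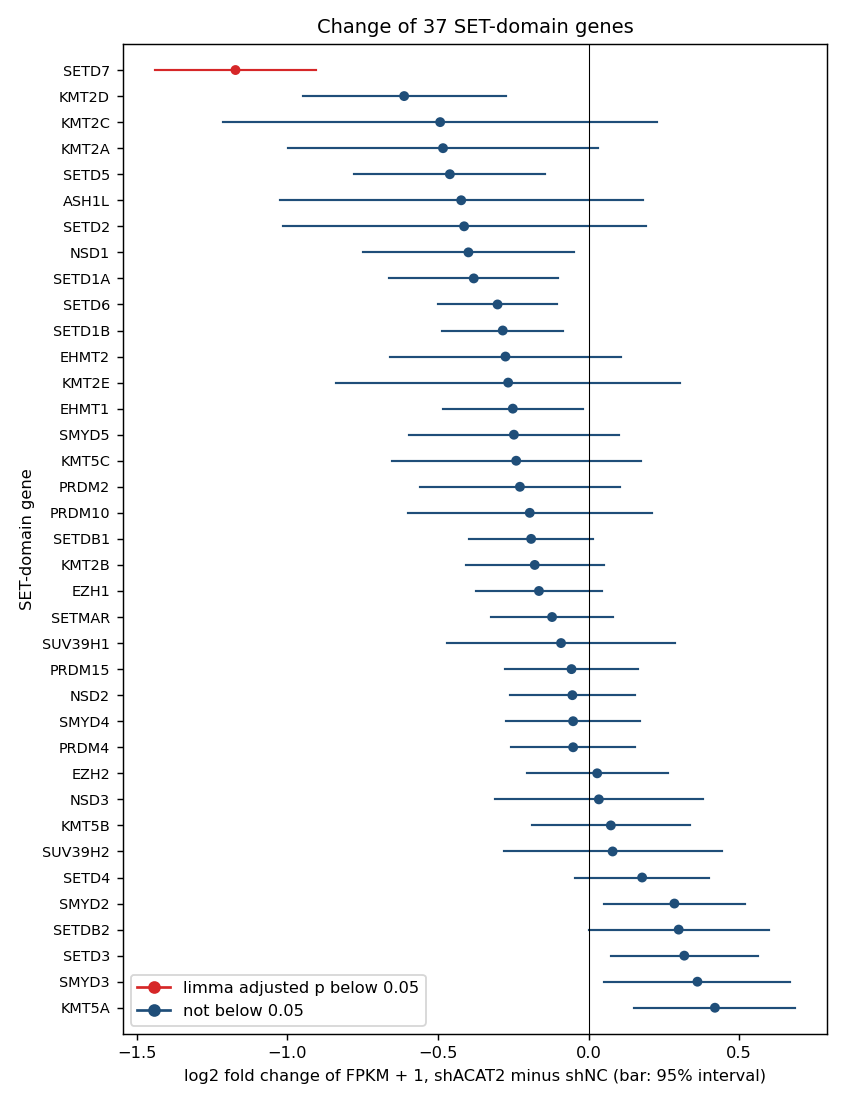
Log2 fold change of FPKM + 1 (shACAT2 minus shNC) for each of the 37 members, with bars for the 95% interval from limma over 3 libraries a group. SETD7 (red), at −1.17, is the only member with an adjusted p below 0.05, and KMT2D follows at −0.61.

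The other members' changes were tested against that of SETD7 directly, by fitting the difference from SETD7 within each library. All 36 differed from it, with adjusted p-values from 0.000123 to 0.0230 (limma). This count has to be read against the whole table, where the change of 96.1% of genes differed from that of SETD7, so it places SETD7 at an extreme and says nothing particular about the family. The smallest difference was that of KMT2D, at 0.56 (95% interval 0.22 to 0.90), and the widest was that of KMT5A, at 1.59. KMT2C had the least certain difference, 0.68 with a 95% interval from 0.13 to 1.23. That call was lost without shNC-1 (adjusted p = 0.0844), without shACAT2-2 (0.0804) and without shACAT2-3 (0.0618). The 95% interval of the member's own fold change excluded −1.17 for 35 of the 36, the exception being KMT2C. That count takes −1.17 as fixed, although the interval of SETD7 (−1.44 to −0.90) overlapped, among others, that of KMT2D (from −0.95). The share over all genes was not taken, so the count says nothing particular about the family either.

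All 7 H3K4 methyltransferases had a log2 fold change below 0, against 47.7% of all genes tested, and their median was −0.48. The count and the median include SETD7, which was singled out with its fall known and was the 1 that passed. KMT2D (chr12:49018975-49059774), which with KMT2C marks enhancers with mono-methylated H3K4, stood at 25.4, 23.8 and 23.0 FPKM in shNC and 12.4, 17.7 and 16.5 FPKM in shACAT2 libraries. Its groups did not overlap, and the lowest value came from shACAT2-1. The log2 fold change was −0.61 with an adjusted p of 0.0582. It was called without shACAT2-1 (adjusted p = 0.0419) and by limma-voom on the recovered fragments (0.0313).

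KMT2C (chr7:152134922-152436005) had the largest standard error of the members. It stood at 7.97, 11.3 and 11.7 FPKM in shNC and at 3.89, 8.95 and 9.40 FPKM in shACAT2 libraries, so the groups overlapped and the libraries numbered 1 were the lowest on both sides. Its log2 fold change was −0.49 (SE 0.304, adjusted p = 0.378). It was −0.14 without shACAT2-1, −0.65 without shNC-1 and −0.30 without both. KMT2A, the MLL gene rearranged in leukaemia, was also lowest in the library numbered 1 of each group, at 4.94, 6.36 and 6.67 FPKM against 2.55, 4.98 and 4.78 FPKM (−0.48, adjusted p = 0.237; −0.24 without shACAT2-1). Between libraries of the same number, KMT2A differed by −0.74, −0.30 and −0.41. KMT2B, its closest relative, gave −0.18.

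SETD1A and SETD1B, the catalytic subunits of the SET1 complexes that deposit most H3K4 trimethylation, kept their groups apart without passing. SETD1A (chr16:30957294-30984664) was the second highest member in shNC cells, at 29.4, 26.2 and 26.96 FPKM, and stood at 23.3, 21.3 and 18.3 FPKM in shACAT2 libraries (−0.38, adjusted p = 0.117). SETD1B stood at 6.83, 6.38 and 6.65 FPKM against 5.61, 5.15 and 5.02 FPKM (−0.28, adjusted p = 0.106).

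The H3K36 enzymes had 0 of 6 members past the test, and 5 of 6 had a log2 fold change below 0. SETD2 (chr3:47016429-47163967), which makes trimethylated H3K36 along transcribed genes, stood at 6.57, 10.0 and 9.87 FPKM in shNC and 4.04, 8.17 and 7.29 FPKM in shACAT2 libraries. The groups overlapped because shNC-1 lay below shACAT2-2 and shACAT2-3. The fold change of −0.41 had an adjusted p of 0.377. It was −0.15 without shACAT2-1, −0.59 without shNC-1 and −0.33 without both. ASH1L, an H3K36 dimethylase, had the same shape, at 7.28, 10.5 and 9.92 FPKM against 4.09, 8.29 and 8.09 FPKM (−0.42, adjusted p = 0.367; −0.14 without shACAT2-1). NSD1, whose loss causes an overgrowth syndrome, stood at 8.68, 10.1 and 9.49 FPKM against 5.39, 8.15 and 7.41 FPKM without overlap (−0.40, adjusted p = 0.165; −0.25 without shACAT2-1). By replicate number, ASH1L differed by −0.70, −0.30 and −0.26, and NSD1 by −0.60, −0.28 and −0.32. The relatives of NSD1 were close to 0: NSD2 gave −0.05, at 14.4 to 15.2 FPKM in shNC and 13.6 to 14.5 FPKM in shACAT2 libraries, and NSD3 gave 0.03. SETMAR, a fusion of a SET domain with a transposase, gave −0.12.

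Among the enzymes of silent chromatin, 0 passed. EZH2, the catalytic subunit of Polycomb repressive complex 2 and the highest member, stood at 28.8, 32.7 and 32.2 FPKM in shNC and 30.8, 32.5 and 32.1 FPKM in shACAT2 libraries. The values of the groups overlapped, with a log2 fold change of 0.03 and a 95% interval from −0.21 to 0.26. EZH1, its less active relative, stood at 2.97 to 3.24 FPKM against 2.54 to 2.80 FPKM (−0.16, adjusted p = 0.309).

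Of the 6 H3K9 enzymes, 0 passed and 4 had a log2 fold change below 0. EHMT2 and EHMT1, which pair to make dimethylated H3K9, gave −0.28 and −0.25, and EHMT2, which ran from 11.9 to 18.2 FPKM over the shACAT2 libraries, gave −0.12 without shACAT2-3. SETDB1, which silences retroelements, stood at 6.84 to 7.06 FPKM in shNC and 5.59 to 6.47 FPKM in shACAT2 libraries, without overlap (−0.19, adjusted p = 0.243). SUV39H1 and SUV39H2, the enzymes of pericentric heterochromatin, gave −0.09 and 0.08. SETDB2 was the H3K9 member on the other side, at 2.05, 2.66 and 2.66 FPKM against 2.75, 3.63 and 3.38 FPKM (0.30, adjusted p = 0.212).

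Among the H4K20 enzymes, KMT5A (chr12:123383773-123409358), which adds a single methyl group to H4K20 in dividing cells, had the highest fold change of the family. It stood at 9.65, 9.40 and 8.37 FPKM in shNC and 14.2, 12.3 and 11.3 FPKM in shACAT2 libraries. Every knockdown library lay above every control, with a log2 fold change of 0.42 (95% interval 0.15 to 0.69) and an adjusted p of 0.0849. KMT5B and KMT5C, which add the further methyl groups, gave 0.07 and −0.24, and KMT5C, which ran from 2.79 to 5.20 FPKM over the shACAT2 libraries, gave −0.051 without shACAT2-3.

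The SMYD genes, whose SET domain is split by a MYND zinc finger, went both ways and 0 of 4 passed. SMYD3 (chr1:245749342-246507312), which methylates the kinase MAP3K2, stood at 4.81, 3.65 and 4.23 FPKM in shNC and 6.64, 4.96 and 5.58 FPKM in shACAT2 libraries (0.36, adjusted p = 0.158). SMYD2, which like SETD7 methylates p53, stood at 19.7, 18.9 and 18.7 FPKM against 25.3, 21.6 and 23.7 FPKM (0.28, adjusted p = 0.146). Neither gene overlapped between the groups. SMYD5 gave −0.25 (−0.15 without shACAT2-3) and SMYD4 −0.05.

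The other SETD genes and KMT2E also had 0 of 5 past the test. SETD3, which methylates a histidine of actin, was the second highest member in shACAT2 cells, at 27.1, 23.5 and 25.4 FPKM against 21.1, 20.4 and 18.8 FPKM in shNC (0.32, adjusted p = 0.127). SETD6, which methylates the NF-κB subunit RelA, stood at 6.38, 6.32 and 5.79 FPKM in shNC and 4.95, 4.83 and 4.63 FPKM in shACAT2 libraries, without overlap (−0.30, adjusted p = 0.0916). SETD6 (chr16:58515479-58521181) shares 21.4% of its exon bases with CNOT1 on the opposite strand, and no strand setting is given in the sources used here. SETD5, a large chromatin protein, stood at 16.8, 17.8 and 17.4 FPKM against 10.1, 13.1 and 14.2 FPKM (−0.46, adjusted p = 0.102). KMT2E gave −0.27, and −0.0066 without shACAT2-1, but shNC-1 was also the lowest control. Within pairs of the same number, KMT2E differed by −0.48, −0.16 and −0.16. SETD4 gave 0.18. The 4 PRDM genes, zinc finger proteins with a related PR domain, lay between −0.23 (PRDM2) and −0.05 (PRDM4), and 0 passed. Without shACAT2-1, PRDM2 gave −0.11 and PRDM10 gave −0.044. The pairs of the same number differed by −0.32, −0.28 and −0.085 for PRDM2 and by −0.26, −0.12 and −0.20 for PRDM10. Shares of 20.3, 18.9 and 13.4% of exon bases overlap other genes in SUV39H1, KMT2A and SETDB1, whereas SETD7 shares 0.

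The values of some members followed the replicate number. In 15 members the library numbered 1 was the lowest of both groups, against 24.3% of all genes, and in 13 it was the highest of both, against 39.5%. SETD7, KMT2A, KMT2C, ASH1L, SETD2, SETD5 and NSD1 were among the 15. Within the numbered pairs, the difference of SETD7 was −1.31, −1.10 and −1.11, similar in all 3, whereas that of KMT2C was −0.88, −0.31 and −0.29 and that of KMT2D was −0.97, −0.41 and −0.45. Without both libraries numbered 1, an alternative chosen after seeing the data, SETD7 gave −1.10 (adjusted p = 0.0291) and stayed the only member called. The share of all genes called in that fit was not taken, so this count describes the members alone.

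**Figure D3:**
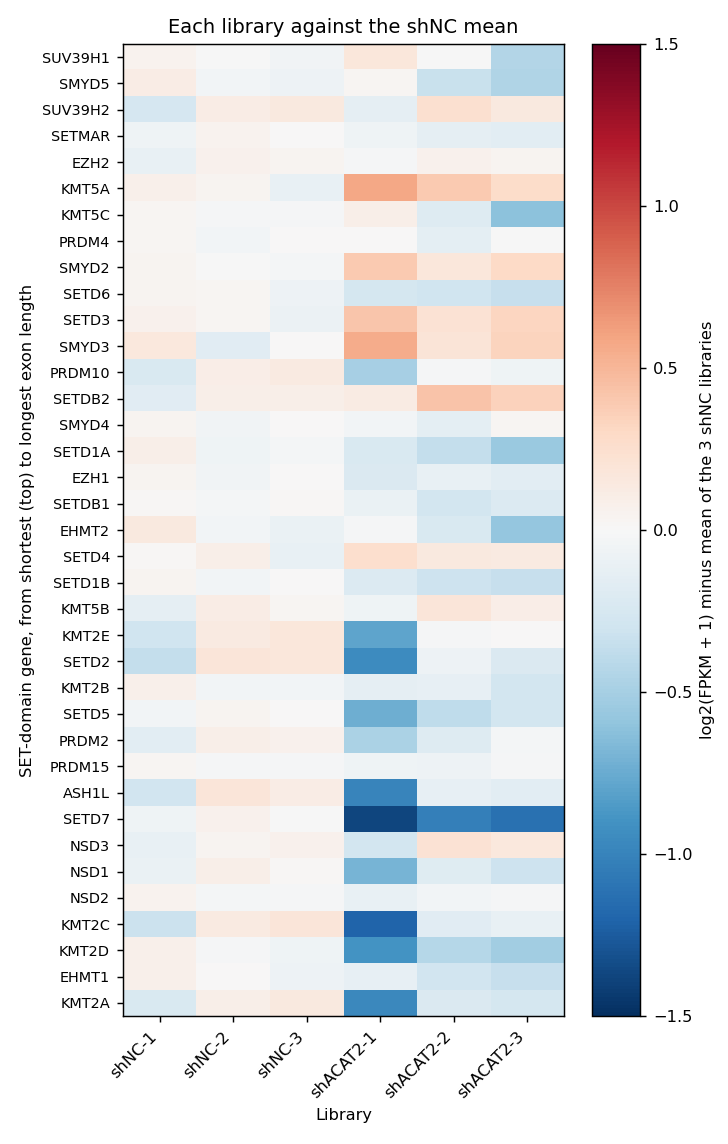
Log2(FPKM + 1) of each member in each of the 6 libraries minus the mean of the 3 shNC libraries, with members ordered from the shortest (top) to the longest exon length. SETD7 is dark blue in all 3 shACAT2 libraries, while KMT2A, KMT2C, ASH1L and SETD2 are dark blue mainly in shACAT2-1.

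Most of the long members had values below 0. The 15 members lowest in both libraries numbered 1 had a median exon length of 10.8 kb, against 6.80 kb for the other members and 4.19 kb for all genes tested. Of the 14 members with at least 10 kb of exons, 13 had a log2 fold change below 0, with a median of −0.41, while the other members below 0 were shorter, such as SETD1A and SETD6. Among all 1310 genes of that length, 64.7% were below 0, the median was −0.089, and 39 (2.98%) were called lower. Across the members, fold change and exon length had a Spearman rho of −0.54 (37 genes, which share the 6 libraries), against −0.089 over all genes. Exon length also went with the distance of shACAT2-1 from the mean of the other shACAT2 libraries (rho −0.60 over the members). For the distance of shNC-1 from the other shNC libraries, rho was −0.22. The part of shACAT2-1 in the relation between fold change and length was not tested. The length limit was chosen after values had been seen, and the part of RNA integrity in these values was not tested. The 4 members nearest to SETD7 (13.9 kb, −1.17) in exon length were PRDM15 (13.0 kb, −0.06), ASH1L (13.3 kb, −0.42), NSD3 (15.3 kb, 0.03) and NSD1 (15.5 kb, −0.40).

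None of the tested genes next to SETD7 on chromosome 4 was called. Within 500 kb of SETD7 lie 27 other genes, of which 9 were tested and 0 passed. Their log2 fold changes ran from −0.095 (RAB33B) to 0.47 (RNU6-531P), and the lowest adjusted p was 0.426 (limma, NDUFC1). NAA15, an N-terminal acetyltransferase subunit, gave −0.08, ELF2 −0.06 and MGST2 0.14. The antisense gene AC112236.2 (chr4:139556799-139557643, plus strand) lay at 0.155 to 1.03 FPKM and was not tested.

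The partners of the family were read from lists of other genes. In the 104 listed genes that are no members, 87 were tested and 5 passed, 3 lower and 2 higher, a share close to the 5.1% of all genes called. With the replicate number as a block, 8 passed, against 12.5% of all genes. Of 13 subunits of the COMPASS and MLL complexes, 1 passed, lower. HCFC1, a scaffold shared by the SET1 and MLL1 complexes, stood at 51.7, 45.2 and 46.2 FPKM in shNC and 30.8, 30.9 and 30.6 FPKM in shACAT2 libraries, and fell by 0.61 on the log2 scale (adjusted p = 0.0224). That call was lost on leaving out any of the 3 control libraries or shACAT2-2 (adjusted p 0.0833 to 0.126). WDR5, a core subunit, gave 0.15. With the replicate number as a block, the core subunit ASH2L was also called, higher, at 11.1, 8.94 and 9.84 FPKM against 14.03, 12.6 and 12.7 FPKM (0.37, adjusted p = 0.0383; 0.106 without the block).

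Of 10 subunits of Polycomb repressive complex 2, 1 passed, lower. JARID2, which helps to recruit the complex, stood at 7.54, 7.23 and 6.96 FPKM in shNC and 3.38, 3.66 and 4.04 FPKM in shACAT2 libraries, and fell by 0.81 on the log2 scale (adjusted p = 0.00740). Without shNC-2 or shNC-3 the adjusted p was 0.0570 or 0.0560. The histone-binding core subunits RBBP4 and RBBP7 gave −0.0088 and 0.17 and did not pass.

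Among 22 lysine demethylases, which remove the marks that these enzymes set, 19 were tested and 1 passed, higher. KDM4C, an H3K9 and H3K36 demethylase, stood at 2.71, 2.94 and 2.94 FPKM against 3.94, 4.14 and 4.23 FPKM (0.40, adjusted p = 0.0450). Its call was lost on leaving out any of the 3 control libraries (adjusted p 0.133 to 0.183), shACAT2-2 (0.140) or shACAT2-3 (0.0828). KDM1A, the most abundant demethylase gene here, gave −0.18. With the replicate number as a block KDM4A was also called, higher (0.32, adjusted p = 0.0498). Of 13 methyltransferases without a SET domain, 0 passed, with DNMT1 at −0.31 (adjusted p = 0.152) and PRMT1 at −0.0049. Of 10 tested genes that supply or recycle S-adenosylmethionine, 0 passed. MAT2A, the synthase of this methyl donor, stood at 208, 199.5 and 198 FPKM against 158, 143 and 159.9 FPKM without overlap (−0.39, adjusted p = 0.0791; 0.0413 with the replicate number as a block). Of 14 further SET- or PR-domain genes, 5 were tested and 0 passed, with SETD9 at 0.12 and PRDM16 at −0.08.

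Of 24 genes whose proteins have been described as SETD7 substrates, 20 were tested and 2 passed, beside 5.1% of all genes. Of the 20, 10 had a log2 fold change below 0 and 10 above, with a median of −0.019. PARP1, which signals DNA breaks, stood at 87.9, 79.3 and 78.1 FPKM in shNC and 38.0, 34.2 and 33.8 FPKM in shACAT2 libraries, and fell by 1.19 on the log2 scale (SE 0.107, adjusted p = 0.00437). SMAD7, an inhibitor of TGF-beta signalling, rose from 5.15, 4.46 and 4.78 FPKM to 9.15, 7.78 and 6.58 FPKM (0.60, adjusted p = 0.0445). The call of SMAD7 was lost on leaving out any of the 3 control libraries or shACAT2-2 (adjusted p 0.113 to 0.188). These values are RNA levels and hold nothing on the methylation of the proteins.

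**Figure D4:**
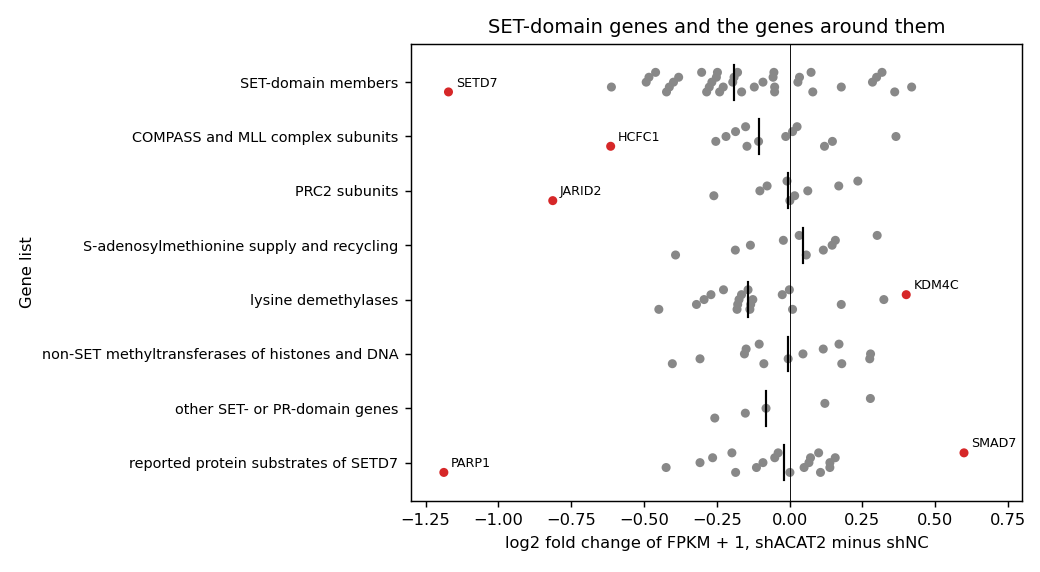
Log2 fold change (shACAT2 minus shNC) of each tested gene of the family and of 7 further lists, with 1 point for each gene, red where the limma adjusted p is below 0.05, and a black bar at each list's median. SETD7 (−1.17) and PARP1 (−1.19) lie far left of all other points, followed by JARID2 (−0.81) and HCFC1 (−0.61), with KDM4C (0.40) and SMAD7 (0.60) on the right.

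Other measures moved with the groups or with 1 library. Of 5 fibroblast markers 4 were tested, and COL1A1, DCN and LUM rose, against 3.3% of all genes called higher. COL1A2 gave 0.45 (adjusted p = 0.0772) and PDGFRB was not tested. COL1A2 was called with the replicate number as a block (adjusted p = 0.0432) and by limma-voom (0.0438). The summed level of the list was 102 to 107 FPKM in shNC and 179 to 201 FPKM in shACAT2 libraries. Summed epithelial markers stood at 0.505 to 0.830 FPKM in shNC and 1.44 to 2.22 FPKM in shACAT2 libraries. Most of that difference was CDH1, at 0.222, 0.120 and 0.141 FPKM against 0.608, 0.828 and 1.15 FPKM. Of the mucosal markers, 3 of 7 were listed at 0 in every library. Leukocyte markers summed to 0.979 to 1.28 FPKM in shNC and 0.918 to 1.28 FPKM in shACAT2 libraries, and endothelial markers to at most 0.373 FPKM. The library shACAT2-3 stood apart: 7477 genes were detected in it and in none of the rest, a number that was 416 to 657 for each of the other libraries. The part of these measures in the fall of SETD7 was not tested. Without shACAT2-3, SETD7 gave −1.20 (adjusted p = 0.0111).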

How the data were processed

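Total RNA of 6 HGC-27 libraries was sequenced. The authors deposited FPKM values per gene, with names, coordinates and exon lengths; the submitters' processing notes name HISAT2 2.0.5, featureCounts 1.5.0-p3 and DESeq2 1.20.0. The lengths of all 37 members equal those of GENCODE release 29 (GRCh38). FPKM times length gave whole fragments for 100% of values (tolerance 0.02). The scaling value of a library in these FPKM was not its sum of fragments on genes. Scaling to that sum was among the alternatives, as library-size scaling. The members and lists were chosen with earlier results of these data known.

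Log2(FPKM + 1) was fitted with limma 3.58.1 (trend, R 4.3.3) over genes whose mean reached 1 FPKM in shNC or in shACAT2 cells, with Benjamini-Hochberg adjustment. For the difference from SETD7, the value of SETD7 in the same library was subtracted first. The fit was also run on simulated counts. These were drawn independently for each library, without the replicate pattern of these data, so that run does not vouch for the fit here. Promoters came from RefSeq (GRCh38.p14). All members were named, and of each list the genes past an adjusted p of 0.05 and up to 3 further with the highest mean FPKM; genes beside SETD7 were named by position, and ASH2L and KDM4A after their values were seen.

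Replicate numbers come from the sample titles. Deviations from the group means correlated at r = 0.445, 0.126 and 0.171 for numbers 1, 2 and 3, and libraries with the same number were treated as pairs in the block. The crossed pairs correlated about as well for numbers 2 and 3: shNC-2 with shACAT2-3 gave 0.198 and shNC-3 with shACAT2-2 gave 0.141. The values therefore set apart only number 1, and the block otherwise rests on the titles. The libraries shNC-2 and shNC-3 differed by a chi-square per gene of 1.74, against 13.6 to 52.2 for other pairs. Alternatives were other scalings, filters and pseudocounts, the replicate block, limma-voom on fragments, and each library left out.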

Additional observations from a re-analysis of the deposited data

How the results depend on the processing

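SETD7 stayed lower and past the threshold under all 15 alternatives, with log2 fold changes from −1.41 to −1.07 and adjusted p-values from 0.000891 to 0.0472. The count of members whose change differed from that of SETD7 was 35 or 36. The count of members called, 1, was 2 with library-size scaling (SETD1A, adjusted p = 0.0399), after a filter of 10 fragments per library (KMT2D, 0.0386) and with limma-voom (KMT2D), and 1 to 2 with a library left out. With the replicate block it was 6, of which 4 were lower and 2 higher, and 30 of the 36 other members were called by none of the fits. Shares over all genes are given only for the main fit (5.1%) and the block (12.5%). The other counts therefore describe the members alone and are not set against a background. All members called with library-size scaling, with at least 10 fragments and with limma-voom were lower (2 each, and 1 to 2 with a library left out). The count over the other lists, 5, was 3 with no filter, 8 with the replicate block, 1 with shNC-2 and shNC-3 averaged, 1 to 5 with a library left out and 3 without replicate 1 in both groups. The median of the members ran from −0.21 to −0.13 with a library left out.

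Members near 0 changed sign. EZH2 gave −0.023 with library-size scaling, −0.0041 without replicate 1 in both groups, and −0.026 (without shNC-1) to 0.061 with 1 library left out. NSD3 gave −0.011 with library-size scaling and −0.056 (without shACAT2-2) to 0.19 with 1 library left out, and was also below 0 without shNC-1 or shACAT2-3. With 1 library left out, SUV39H1 ran from −0.22 to 0.082 (without shACAT2-3) and SUV39H2 from −0.047 (without shNC-1) to 0.19. The cause was not tested. With 3 libraries a group, the standard errors of the members ran from 0.084 to 0.304, which limits the size of change that could be detected.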
